A study of Bos taurus with 16 samples.

Results

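Pattern recognition receptors and the adaptors that carry their signal were examined in the blood leukocytes (WBC) and the endometrium of 8 Holstein cows. The members were a list of 38 genes, found by probes whose gene name on the array equals the member's symbol. A probe was found for 35 of the 38, as 74 of 46615 probes and 35 of 26554 gene names. No probe carried the names NOD1, AIM2 or DHX58. The members fell into 5 classes, which were the Toll-like receptors with the co-receptors CD14 and LY96 (12 genes), NOD-like receptors and inflammasome parts (5), C-type lectin receptors (3), RIG-like receptors (2) and adaptors and kinases (13).

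The WBC samples came from jugular blood taken into PAXgene tubes, which fix the RNA of whole blood, and the endometrium samples were biopsies through the cervix. All cows were adult multiparous animals sampled at 45 to 55 days post-partum. The SCE group was made of 4 cows with subclinical endometritis (718, 833, 836 and 846), an inflammation of the uterine lining seen by histology in the absence of clinical signs, and the healthy group of 4 cows (841, 850, 877 and 883). Blood and endometrium of a cow were put on an array each, 16 arrays in all. WBC arrays lay on slide 1 and endometrium arrays on slide 2, so that tissue and slide cannot be told apart, and each row of 4 arrays held 2 cows of each group. The groups held cows in both phases of the estrous cycle, but not in balance. By the paper most SCE cows on the arrays were in the luteal phase, while the healthy cows were split evenly. The paper also reports that the phase affected several endometrial genes in healthy cows by RT-qPCR. The phase was not matched to single cows here.

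Pattern recognition receptors bind molecules that microbes share, such as lipopolysaccharide, lipopeptides, flagellin and nucleic acids. Toll-like receptors sit in the cell surface or in endosomes and recruit adaptors such as MYD88 through their TIR domain, while RIG-like receptors bind viral RNA in the cytoplasm and signal through MAVS. Some NOD-like receptors, such as NLRP3, build the inflammasome with PYCARD, and the inflammasome activates CASP1. C-type lectin receptors bind fungal and mycobacterial sugars and lipids and signal through CARD9. In the uterus after calving, both epithelial and stromal cells and the leukocytes that enter the tissue are known to carry Toll-like receptors.

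Each value below is a log2 level, the mean over a gene's probes of the quantile-normalized spot brightness, and a difference of 1 is a 2-fold change. For CD14, 2 of its 3 probes entered this mean. Levels of different genes cannot be compared, since each rests on its own probes. The largest differences between tissues and the probes on which they rest are easiest to follow from the probes themselves. The probes for PYCARD and for TLR10 gave large differences, that for LY96 had the largest rise of the LY96 probes, and that for TLR2 was the TLR2 probe at which SCE and healthy cows did not overlap in WBC. They are written 5′ to 3′, with no base in capitals, since no part of them stands out. By the array file they lie on the minus strand of Btau_3.1, at chr25:29111711-29111770, chr6:60341351-60341410, chrUn.004.1:1311634-1311693 and chr17:4282611-4282670.
PYCARD A_73_118253: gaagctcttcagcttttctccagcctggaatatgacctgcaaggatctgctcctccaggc
TLR10 A_73_P102346: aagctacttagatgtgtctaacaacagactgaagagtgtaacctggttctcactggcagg
LY96 A_73_103418: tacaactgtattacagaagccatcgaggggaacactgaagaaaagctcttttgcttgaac
TLR2 A_73_P101506: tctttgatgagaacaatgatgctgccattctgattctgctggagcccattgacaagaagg

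Probes of related receptors can resemble each other. A probe for TLR2 (chr17:4282730-4282789) and a probe for TLR6 (chr6:60373101-60373160), both on the minus strand, were aligned without gaps, and capitals mark the bases that are the same at the aligned positions. They shared 32 of 45 aligned bases, or 71.1%. The TLR6 probe also lists a transcript of TLR1 beside that of TLR6, so its signal may hold both.
TLR2 A_73_P103071: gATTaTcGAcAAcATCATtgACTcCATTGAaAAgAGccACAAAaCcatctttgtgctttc
TLR6 A_73_P103091: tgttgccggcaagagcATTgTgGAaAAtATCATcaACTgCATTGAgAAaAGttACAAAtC
The brightest TLR2 probe, A_73_P215177, resembled probes of other genes instead. It matched a probe of LOC511936 over 55 bases at 87.3% identity and, on the opposite strand, a probe of NEPN over 54 bases at 94.4%. The longest run common to the 3 probes, in capitals, was AGAGGATGAGATGGTTGGATGGC, at bases 6 to 28 of the TLR2 probe, and these 3 were the only probes of the array that held it.

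The arrays measured most members in both tissues. In WBC, 34 of 35 members had a probe well above background on all 4 arrays of each group. In endometrium the number was 26 in healthy cows and 22 in SCE cows, and 4 members in each were above background on no array. The endometrium array of SCE cow 833 stood apart, with a median correlation of 0.940 to the other endometrium arrays against 0.973 to 0.979 for the rest, and a median signal above background of 79 against 248 to 316. The mean level of 5 endothelial genes was 11.62 on that array, against 8.91 to 9.69 on the other endometrium arrays. The WBC array of cow 833 also stood apart from the other WBC arrays. Its median correlation to them was 0.972, against 0.984 to 0.989 for the rest. Its median signal above background was 202.5, against 83 to 132. Raw signal was thus lower on the WBC slide than on the endometrium slide, except for the endometrium array of cow 833. This gap and the tissue cannot be told apart. Where leaving out cow 833 changed a call or turned the sign of a difference given here, that is said beside it.

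Most receptors and adaptors had lower levels in endometrium than in WBC. In healthy cows 23 of 35 members fell and 1, LY96, rose (limma TREAT with a 1.2-fold threshold, adjusted p at or below 0.05). Over all 26547 genes tested, 26.4% fell and 19.3% rose. In SCE cows 27 of 35 members fell and 0 rose, against 24.8% and 19% of all genes. The median difference of the members was −1.02 in healthy and −1.19 in SCE cows, where that of all genes was −0.15 in both. All 8 endometrium arrays lay below all 8 WBC arrays for 22 of 35 members, against 21.9% of all genes, and above them for 0, against 15.6%.

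The split between falling and rising members depended on the scale shared by the tissues. When each tissue was normalized on its own, 12 members fell and 2 rose in healthy cows, and 12 fell and 3 rose in SCE cows. Over all genes, 12010 were then called either way in healthy and 11787 in SCE cows. On the shared scale these numbers were 12120 and 11634, or 45.7% and 43.8% of the genes tested, against 68.6% and 77.1% of the members. The calls of all genes thus changed little in number, while those of the members became fewer. Under the separate scales the calls of all genes are not split by direction here. The counts of members that fell or rose there have no background share, and are not read as a result about the members. The median of all genes then moved to 0.33 and 0.34, and that of the members to −0.27 and −0.40, so that the members still had a lower median than all genes. The 12 that were still called lower were TLR1, TLR2, TLR6, TLR7, TLR8, TLR10, NLRC5, PYCARD, CASP1, MYD88 and CARD9 in both groups, with TLR4 in healthy cows and NLRP3 in SCE cows. A biopsy holds other cells than blood, and fewer cells of a type and less RNA per cell cannot be told apart here.

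**Figure D1:**
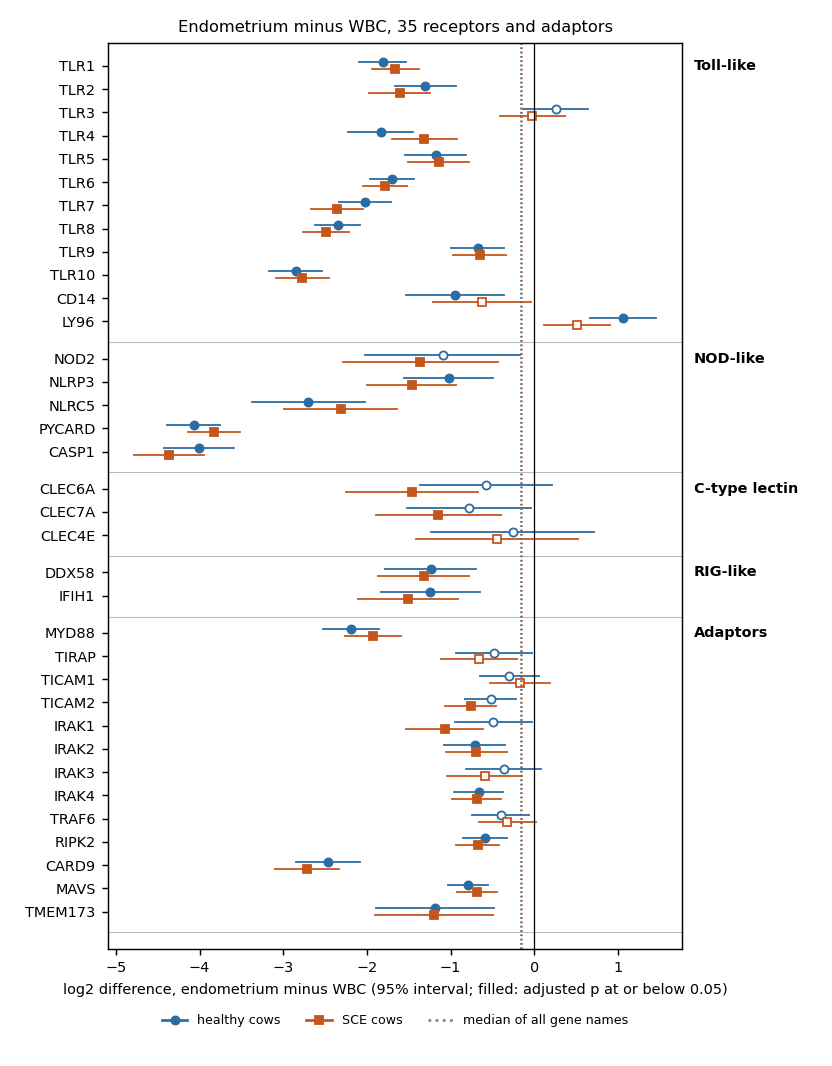
Difference of endometrium minus WBC (log2) for each of the 35 members, by class, in healthy and in SCE cows, with bars for the 95% interval, dotted lines at the median of all genes and a filled point where the TREAT call was made. Nearly all members lie left of 0, PYCARD and CASP1 farthest, and LY96 lies on the right in both groups.

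Among the Toll-like receptors and co-receptors, 10 of 12 fell in healthy cows and 9 of 12 in SCE cows, with medians of −1.50 and −1.46. TLR10, an orphan receptor of the TLR1 and TLR2 branch that is found mainly in B cells, had the largest fitted difference. In WBC its level was 8.22, 8.75, 8.40 and 8.57 in healthy cows 841, 850, 877 and 883, against 8.01, 8.74, 8.56 and 8.41 in SCE cows 718, 833, 836 and 846. In endometrium the healthy cows had 5.65, 5.58, 5.72 and 5.59, and those with SCE had 5.72, 5.61, 5.66 and 5.64, in the same order. The tissues did not overlap, and the endometrium cows lay within a narrow band. The difference was −2.85 ± 0.15 (SE, n = 4 cows) in healthy cows, an adjusted p of 7.86e-10 by limma, and −2.77 ± 0.15 in SCE cows, adjusted p = 1.22e-09. In endometrium a TLR10 probe was well above background on 2 of 4 healthy and 1 of 4 SCE arrays. All 4 TLR10 probes fell, with differences of −3.33 to −2.43 in healthy cows, although A_73_P031366 and A_73_P102351 overlap in position.

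The receptors of nucleic acids in endosomes differed in their behaviour. TLR7 and TLR8, sensors of single-stranded RNA, were not well above background on any endometrium array of healthy cows, and the WBC level was at least 4.07-fold higher for TLR7 and at least 5.10-fold higher for TLR8 (limma adjusted p = 5.35e-08 and 1.77e-09). In SCE cows the TLR8 bound was at least 5.62-fold, and TLR7 fell by 2.36, with 1 of 4 SCE endometrium arrays well above background for it. TLR9, the sensor of unmethylated DNA, had small differences of −0.68 and −0.65 whose calls (adjusted p = 0.0182 and 0.0247) were lost with cow as a block (adjusted p = 0.0558 in healthy and 0.0685 in SCE cows). The TLR9 call was also lost without cow 841 (−0.62) or 850 (−0.62) in healthy cows, and without 718 (−0.59), 836 (−0.58) or 846 (−0.55) in SCE cows. TLR3, the sensor of double-stranded RNA, did not pass in either group, with differences of 0.26 and −0.02. With each tissue normalized on its own, TLR3 was called higher in endometrium in both groups, by 1.08 and 0.80.

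The surface receptors of bacterial ligands fell together. TLR4, the lipopolysaccharide receptor, fell (−1.83 in healthy and −1.31 in SCE cows), and so did TLR5, the flagellin receptor (−1.18 and −1.14). TLR1 and TLR6, the partners of TLR2 for lipopeptides, fell too (−1.81 and −1.70 in healthy cows). All 6 TLR6 probes were called lower, by −2.52 to −0.85 in healthy cows, but not all are specific. A_73_P034511 and A_73_P103091 also list a TLR1 transcript, and A_73_118113 and A_73_P102341 partly match probes of other genes. TLR1 was above background on no endometrium array, and its WBC level was measured 3.51-fold higher in healthy and 3.16-fold higher in SCE cows. TLR4 and TLR5 lost their calls in SCE cows with each tissue normalized on its own (−0.35 and −0.40), TLR5 also in healthy cows (−0.47), and TLR4 in SCE cows with its brightest probe alone (−0.23). At TLR5 probe A_73_P103086 alone the difference was not called in either group (−0.38 and −0.59).

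TLR2, which pairs with TLR1 or TLR6, was measured by 4 probes. Its WBC level was 10.42, 10.68, 10.76 and 10.82 in healthy cows 841, 850, 877 and 883, against 10.70, 11.29, 10.76 and 10.66 in SCE cows 718, 833, 836 and 846. In endometrium the healthy cows had 9.30, 9.33, 9.40 and 9.43, and those with SCE had 9.67, 8.86, 9.27 and 9.18, in the same order. Every endometrium array lay below every WBC array. TLR2 fell in healthy (−1.30 ± 0.17, SE) and in SCE cows (−1.61 ± 0.17), with limma adjusted p = 6.80e-05 and 5.85e-06. The size differed by probe. The brightest, A_73_P215177, differed by −0.38 and was not called (adjusted p = 0.377), while the other 3 fell (−2.30, −1.41 and −1.13). With that probe left out, a setting chosen after the data were seen, the difference of TLR2 was −1.61 in healthy and −1.98 in SCE cows.

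The co-receptors of TLR4 went apart. CD14, which hands lipopolysaccharide to the receptor, differed by −0.94 in healthy cows (limma adjusted p = 0.0313) and −0.63 in SCE cows (adjusted p = 0.193). The healthy call was lost with cow as a block (adjusted p = 0.0617) and without cow 841, 877 or 883 (−0.91, −0.89 and −0.83), and the difference turned to 0.03 with each tissue normalized on its own. In SCE cows CD14 was called without cow 833 (−1.01, adjusted p = 0.0132), whose endometrium level of 9.62 was the highest of the 8 and whose WBC level of 9.09 was the lowest.

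LY96, also known as MD-2, which holds lipopolysaccharide in the TLR4 complex, was the member higher in endometrium. Its WBC level was 6.51, 6.85, 6.86 and 6.59 in healthy cows 841, 850, 877 and 883, against 6.76, 7.33, 7.29 and 6.53 in SCE cows 718, 833, 836 and 846. In endometrium the healthy cows had 7.70, 8.11, 7.71 and 7.54, and those with SCE had 7.68, 7.25, 7.57 and 7.42, in the same order. In 7 of 8 cows the endometrium was higher, the exception being SCE cow 833. LY96 rose by 1.06 ± 0.19 (SE) in healthy cows (limma adjusted p = 0.0012), and the difference was 0.51 ± 0.19 in SCE cows (adjusted p = 0.191). Without cow 833 it was called in SCE cows too, at 0.70 (adjusted p = 0.0426). The 2 groups' differences were not called different from each other (−0.56 ± 0.26, limma adjusted p = 1). Probe A_73_103418, shown above, rose by 2.58 and 1.81, A_73_P150296 differed by 0.86 and 0.04, and A_73_117819 was well above background on no array.

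**Figure D2:**
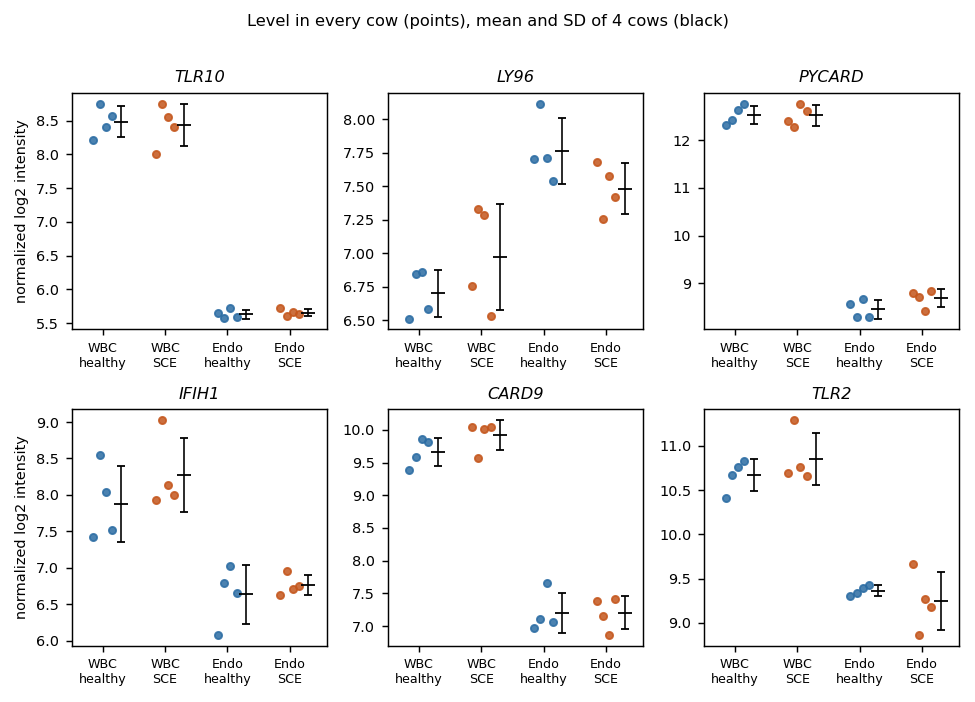
Log2 level in each cow (points) for TLR10, LY96, PYCARD, IFIH1, CARD9 and TLR2, in WBC and endometrium of healthy and SCE cows, with the group mean and SD. The endometrium points lie below the WBC points for each gene but LY96.

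The NOD-like class had the largest shifts, with a median of −2.70 in healthy cows (4 of 5 fell) and −2.31 in SCE cows (5 of 5). PYCARD, also called ASC, links sensors to CASP1 in the inflammasome. Its WBC level was 12.32, 12.42, 12.62 and 12.75 in healthy cows 841, 850, 877 and 883, against 12.40, 12.28, 12.76 and 12.62 in SCE cows 718, 833, 836 and 846. In endometrium the healthy cows had 8.56, 8.29, 8.67 and 8.30, and those with SCE had 8.80, 8.71, 8.41 and 8.83, in the same order. The tissues were far apart in every cow, and SCE and healthy cows overlapped in both. PYCARD fell in healthy cows (−4.07 ± 0.15, SE, which is 16.8-fold, limma adjusted p = 1.31e-11) and in SCE cows (−3.83 ± 0.15, which is 14.2-fold, adjusted p = 2.89e-11).

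CASP1, the protease that matures interleukin-1β, fell as far (−4.01 in healthy and −4.36 in SCE cows). NLRC5, a regulator of MHC class I genes, fell (−2.70 and −2.31), but its probes differed in size, at −4.18 for A_73_P067021 and −1.22 for A_73_115040 in healthy cows, the latter alone not being called in SCE cows (−0.74). NLRP3, the sensor of the best known inflammasome, fell by 1.02 in healthy cows, with 1 of 4 endometrium arrays well above background. That call was lost without cow 877 (−0.93) or 883 (−0.78), with normexp background correction (−0.74) and with each tissue normalized on its own (−0.43). In SCE cows, where it was not well above background in endometrium, WBC was measured 2.76-fold higher.

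NOD2, a sensor of bacterial cell wall fragments, was uneven among cows. In healthy endometrium its level was 8.98, 6.74, 6.99 and 6.42, with cow 841 far above the others, and the SD of 1.15 was the largest of any member in that group. Its difference was −1.10 in healthy cows (limma adjusted p = 0.0831), and −1.80 (adjusted p = 0.000482) without cow 841. In SCE cows it was −1.36 (adjusted p = 0.0308), a call lost with cow as a block (0.0679) and without cow 718, 833 or 846 (−1.48, −0.95 and −1.49).

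Both RIG-like receptors fell. DDX58 (RIG-I), which senses RNA with a 5′ triphosphate, had differences of −1.24 in healthy and −1.32 in SCE cows. Both DDX58 calls were lost with each tissue normalized on its own (−0.42 and −0.50) and at probe A_73_P085911 alone (−0.76 and −0.78). IFIH1 (MDA5), which senses long double-stranded RNA, had WBC levels of 7.43, 8.55, 8.04 and 7.52 in healthy cows 841, 850, 877 and 883, against 7.93, 9.03, 8.13 and 7.99 in SCE cows 718, 833, 836 and 846. In endometrium they were 6.08, 6.80, 7.03 and 6.65 in healthy and 6.62, 6.95, 6.72 and 6.75 in SCE cows. The tissues did not overlap, though the gap between the highest endometrium cow and the lowest WBC cow was small. IFIH1 fell in healthy (−1.24 ± 0.28, SE) and in SCE cows (−1.51 ± 0.28) (limma adjusted p = 0.00486 and 0.000966), and both calls were lost with each tissue normalized on its own (−0.54, adjusted p = 0.302, and −0.77, adjusted p = 0.0929). Its probes A_73_105902 and A_73_P421061 fell in healthy cows (−1.84 and −1.62), whereas A_73_P094461 differed by −0.27.

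Of the adaptors and kinases, 7 of 13 fell in healthy cows and 9 of 13 in SCE cows, with medians of −0.59 and −0.69, the smallest of the classes with a call in healthy cows. CARD9, the adaptor of the C-type lectin receptors, fell most. Its WBC level was 9.39, 9.59, 9.86 and 9.81 in healthy cows 841, 850, 877 and 883, against 10.05, 9.57, 10.02 and 10.04 in SCE cows 718, 833, 836 and 846. In endometrium the healthy cows had 6.96, 7.11, 7.65 and 7.07, and those with SCE had 7.39, 7.16, 6.86 and 7.41, in the same order. The tissues lay well apart. The difference was −2.47 ± 0.18 (SE) in healthy and −2.71 ± 0.18 in SCE cows (limma adjusted p = 4.25e-08 and 1.39e-08), and at the CARD9 probes −3.49 and −1.44 in healthy cows.

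MYD88, the adaptor shared by nearly all Toll-like receptors, fell (−2.19 and −1.93), as did TMEM173 (STING), the adaptor of DNA sensing (−1.18 and −1.19). The TMEM173 call was lost without healthy cow 850 or 877 (−1.14 and −0.96) and, in SCE cows, without 836 (−1.17), and in both groups with each tissue normalized on its own (−0.27 and −0.29). IRAK2, IRAK4, RIPK2 and MAVS, kinases and an adaptor of these pathways, fell less in healthy cows (−0.79 to −0.59). With each tissue normalized on its own IRAK4, RIPK2 and MAVS had differences of 0.29, 0.21 and 0.19 there, and IRAK2 had −0.03. The healthy calls of IRAK2 without cow 841 (−0.62), of IRAK4 without 883 (−0.59) and of RIPK2 without 877 (−0.55) or 883 (−0.54) were lost too, and that of IRAK2 in SCE cows without 718 (−0.69) or 846 (−0.64).

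The remaining adaptors differed less between tissues. IRAK1 and TICAM2, which acts with TLR4, were called in SCE cows (−1.07 and −0.76) and not in healthy cows (−0.49 and −0.52), and the test of the difference between the groups called neither. TICAM1 (TRIF, the adaptor of TLR3), TRAF6 and IRAK3, an inhibitor of the pathway, were called in neither group, at −0.30, −0.40 and −0.37 in healthy cows. With each tissue normalized on its own these signs turned, and TRAF6 was called higher in endometrium of SCE cows (0.66, adjusted p = 0.0294) and had 0.58 in healthy cows (adjusted p = 0.0707), while TICAM1 had 0.46 in healthy and 0.62 in SCE cows without a call. TIRAP was well above background on no endometrium array and on no WBC array of healthy cows, so that no difference is given for the latter, although the fit called it without cow 833 (adjusted p = 0.049). In SCE cows 2 of 4 WBC arrays measured TIRAP, and its mean WBC level was 1.59-fold that in endometrium. This is no lower bound, since the remaining WBC arrays were not well above background either. The WBC level was 7.44 in cow 833, against 6.44, 6.19 and 6.27 in cows 718, 836 and 846. The difference was called with cow as a block (adjusted p = 0.0458) and not without it.

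The C-type lectin receptors had the tissue difference with the smallest median of the 5 classes in healthy cows, −0.58 with 0 of 3 called, and a median of −1.15 in SCE cows. In the latter CLEC6A (dectin-2) and CLEC7A (dectin-1), receptors of fungal mannans and β-glucans, fell (−1.46 and −1.15), and both calls were lost without cow 833 (−1.10 and −0.64). CLEC4E (mincle), a receptor of mycobacterial cord factor, differed by −0.26 and −0.44, the latter being 0.24 without cow 833, and its endometrium level was higher than its WBC level in 4 of 8 cows. In endometrium CLEC4E ranged from 6.19 to 7.87 in healthy cows and from 5.98 to 8.12 in SCE cows, with an SD of 0.97 in the latter, the largest of any member in that group.

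Most lists of genes that mark leukocytes moved with these tissue differences. The mean log2 level of 9 neutrophil genes ran from 11.6 to 12 in WBC and from 6.83 to 8.01 in endometrium, and that of 7 of 8 listed monocyte and macrophage genes from 11.3 to 12.2 and from 8.70 to 10.11. T cell genes (7) ran from 10.0 to 10.5 and from 7.10 to 7.71, and B cell genes (3 of 6) from 11.7 to 12.9 and from 8.86 to 9.75. Cytotoxic cell genes (6) ran from 9.52 to 10.66 and from 7.34 to 7.85. Plasma cell genes (4 of 6) ran the other way, from 9.74 to 10.27 in WBC and from 10.29 to 12.08 in endometrium. CSF3R, the receptor of the neutrophil growth factor G-CSF, fell by 7.86 in healthy cows and was still well above background on 3 of 4 of their endometrium arrays. Genes of stroma (7) were higher in endometrium too, from 7.79 to 7.95 in WBC and from 12.3 to 14.2 in endometrium, as did those of epithelium (7; 7.46 to 7.72 and 8.71 to 11.0) and uterus (4 of 5; 5.64 to 5.92 and 8.32 to 10.7). The part of these markers in the members' differences was not tested.

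Other genes of the same pathways followed a like course. Of 55 further genes listed, 51 had a probe, of which 33 fell and 3 rose in healthy cows, and 34 fell and 2 rose in SCE cows, with medians of −1.30 and −1.28. NAIP and NLRC4, which form an inflammasome for flagellin, fell in healthy cows (−5.50 and −3.26). SYK and FCER1G, the kinase and the signalling chain of C-type lectin receptors, fell (−5.02 and −5.06), and so did MALT1, which acts with CARD9 (−2.93). IRF5, a transcription factor downstream of MYD88, fell (−4.58), as did UNC93B1, which carries Toll-like receptors to endosomes (−2.27). CHUK, a kinase of the NF-κB pathway, and HSP90B1, a chaperone of Toll-like receptors, rose by 2.54 and 1.95 in healthy cows and by 2.42 and 1.56 in SCE cows, and MRC1, the mannose receptor of macrophages, rose by 0.84 in healthy cows.

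**Figure D3:**
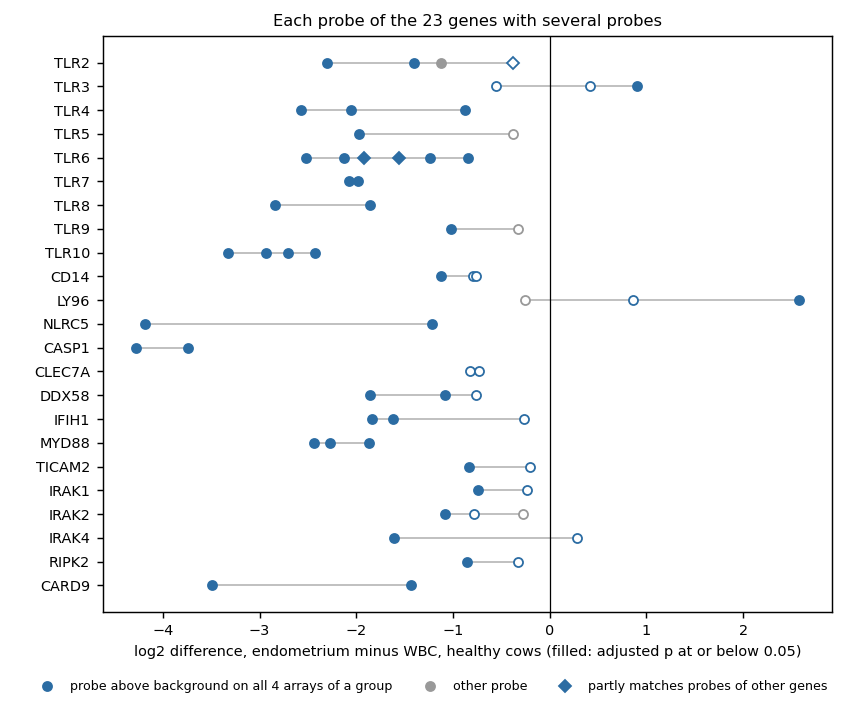
Difference of endometrium minus WBC (log2) in healthy cows for each probe of the 23 members with more than 1 probe. The probes of a gene often differ in size, and those of TLR3, LY96 and IRAK4 lie on both sides of 0.

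The tissue difference was checked probe by probe, since a gene's value averages its probes. Of the 23 members with more than 1 probe, all probes were called lower in healthy cows for 9 and signs disagreed for 3, TLR3, LY96 and IRAK4. TLR3 ran from −0.55 to 0.90. IRAK4 fell by 1.61 at A_73_P434586 and differed by 0.29 at A_73_112639, its brightest probe.

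Between SCE and healthy cows no member passed the adjusted test in either tissue, nor did any of the 26547 genes tested in endometrium or the 26550 in WBC (limma TREAT, 0% called). At an unadjusted p at or below 0.05, 0 of 35 members passed in endometrium, against 0.38% of all genes, and 1, CLEC6A, in WBC, against 0.0904%. For 0 of 35 members did the 4 SCE cows lie apart from the 4 healthy cows, against 1.5% of all genes in endometrium and 1.33% in WBC. The median difference of SCE minus healthy over the members was 0.03 in endometrium and 0.10 in WBC, where that of all genes was 0.003 and −0.008. The 95% interval of the difference stayed within a 2-fold change either way for 31 of 35 members in endometrium and 32 of 35 in WBC. The exceptions were CD14, NOD2, NLRC5 and CLEC4E in endometrium and CLEC6A, CLEC4E and IFIH1 in WBC.

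**Figure D4:**
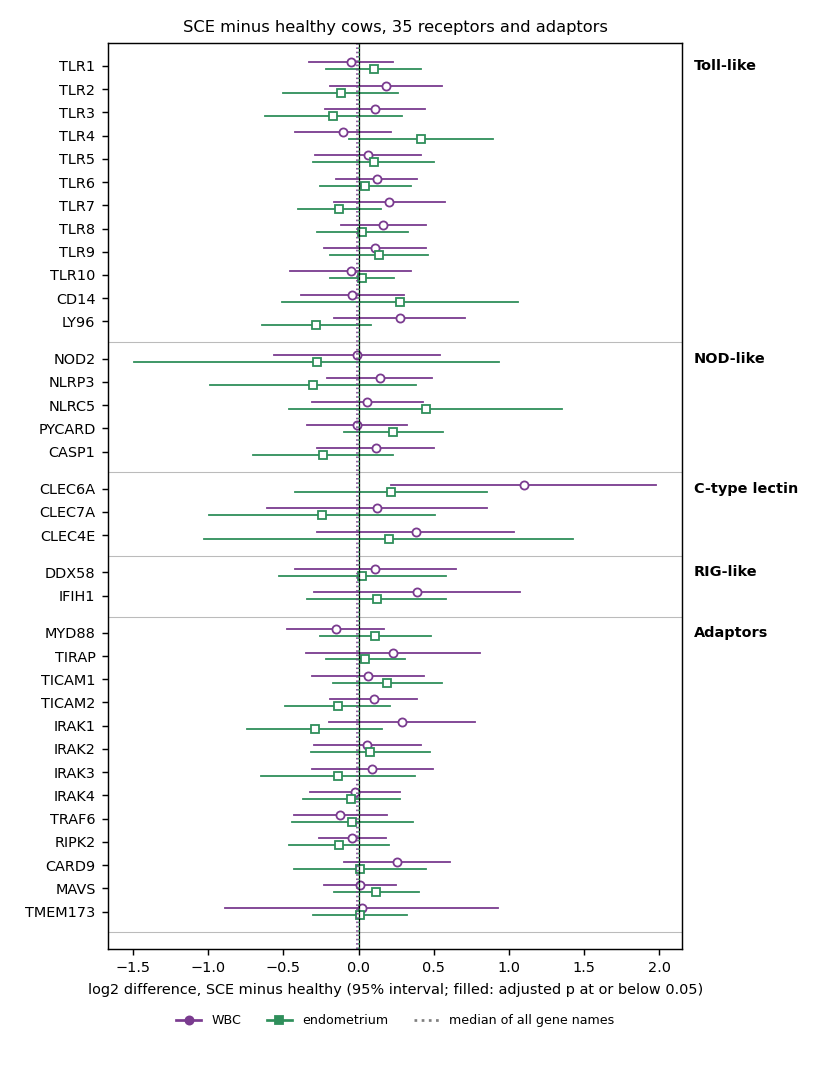
Difference of SCE minus healthy cows (log2) for each of the 35 members, by class, in endometrium and in WBC, with bars for the 95% interval, which is not adjusted for the number of genes. Each interval includes 0 but that of CLEC6A in WBC, which runs from 0.22 to 1.98, and no point is filled, since none was called.

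CLEC6A had the largest difference of SCE minus healthy cows among the members. Its WBC level was 6.81, 7.69, 6.82 and 7.03 in healthy cows 841, 850, 877 and 883, against 8.09, 8.82, 8.84 and 7.0 in SCE cows 718, 833, 836 and 846. SCE cows 718, 833 and 836 lay above all healthy cows, and SCE cow 846 lay among them. The difference was 1.099 ± 0.39 (SE), with an unadjusted limma TREAT p of 0.0336 and an adjusted p of 1, and the two-sided exact permutation test over the 70 splits gave p = 0.0857, where the smallest p possible is 0.0286. Within the rows of the slide the difference was 1.203 and 0.994. The unadjusted p was over 0.05 when cow 718, 833, 836, 841, 877 or 883 was left out, with differences of 0.88 to 1.13. Without SCE cow 846 it was 1.49, again with an adjusted p of 1. In endometrium CLEC6A differed by 0.22 (exact permutation p = 0.543), and the difference between the tissues was not called (−0.88 ± 0.52, limma adjusted p = 1). Without cow 846 the latter was −1.15, past the unadjusted threshold and with an adjusted p of 1.

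The other lectin receptors of WBC did not separate the groups. Healthy cows 841, 850, 877 and 883 had CLEC7A levels of 7.49, 7.68, 7.99 and 8.06, against 8.27, 8.79, 7.25 and 7.38 for SCE cows 718, 833, 836 and 846. The CLEC4E levels of the healthy cows were 7.10, 7.29, 7.91 and 7.57, against 8.17, 8.45, 7.70 and 7.08 for those with SCE, in the same order. For both genes, SCE cows 718 and 833 were the highest of the 8. SCE cows 836 and 846 lay below all healthy cows for CLEC7A, while for CLEC4E cow 836 lay among the healthy cows and cow 846 just below them. The differences were 0.12 and 0.38 (exact permutation p = 0.8286 and 0.314), and that of CLEC7A was −0.17 without cow 833. The monocyte and macrophage markers ran from 11.4 to 12.2 in SCE WBC, highest in cow 718 (12.15) and lowest in cow 833 (11.43), and from 11.3 to 12 in healthy WBC, and their part in the lectin levels was not tested.

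**Figure D5:**
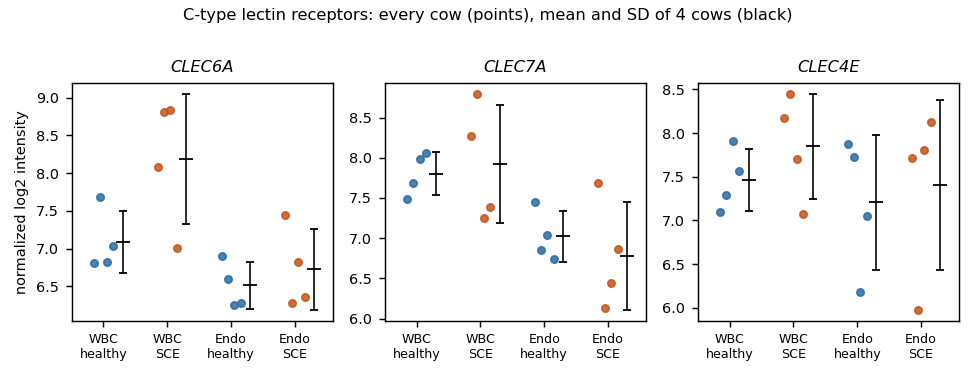
Log2 level in each cow for CLEC6A, CLEC7A and CLEC4E in the 4 groups of samples, with the group mean and SD. In WBC the SCE cows 718, 833 and 836 lie above all healthy cows for CLEC6A, while both groups overlap for CLEC7A and CLEC4E.

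TLR2 was called in neither tissue between SCE and healthy cows. Its difference was 0.18 ± 0.17 in WBC and −0.12 ± 0.17 in endometrium (exact permutation p = 0.457 and 0.543), with 95% intervals from −0.19 to 0.56 and from −0.50 to 0.26. Without cow 833 the differences were 0.038 and 0.008. The value of 11.29 in WBC of cow 833 was the highest of the 8. At probe A_73_P101506 the WBC levels were 7.50, 7.59, 7.43 and 7.69 in healthy cows 841, 850, 877 and 883, against 7.83, 8.15, 8.04 and 7.82 in SCE cows 718, 833, 836 and 846. All SCE cows thus lay above all healthy cows, by a mean of 0.41 (unadjusted TREAT p = 0.147, exact permutation p = 0.0286, the smallest possible). Every probe without overlap gets this exact permutation p. Since A_73_P101506 was picked for its lack of overlap, that p was fixed by the choice and is not read as evidence of a TLR2 difference. The other 3 TLR2 probes overlapped, with differences of 0.08, 0.13 and 0.12.

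Of the 73 members' probes with a value on all 8 WBC arrays, 2 were without overlap, against 1.3% of all probes, and in endometrium 0 of 74 were, against 1.63%. The other of the WBC probes was A_73_P067021 of NLRC5, at 11.52 to 11.74 in healthy and 11.77 to 11.90 in SCE cows. The sole probe past the unadjusted threshold in WBC was that of CLEC6A, against 0.122% of all probes, and 0 of 74 passed in endometrium, against 0.453%.

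TLR4 had the smallest unadjusted p of the members in endometrium. Its level there was 8.55, 8.61, 7.97 and 8.12 in healthy cows 841, 850, 877 and 883, against 8.93, 9.07, 8.46 and 8.46 in SCE cows 718, 833, 836 and 846. The groups overlapped, with SCE cows 718 and 833 above all healthy cows. The difference was 0.42 ± 0.21 (TREAT p = 0.245, exact permutation p = 0.171). In WBC it was −0.10, and the difference between tissues was not called (0.52 ± 0.26, limma adjusted p = 1). With all cows, in no member did the SCE difference differ between tissues, adjusted or unadjusted, against 0.388% of all genes at the unadjusted threshold.

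The spread between cows of a group was of the size of these differences. The median SD of the members was 0.22 in healthy and 0.25 in SCE cows in WBC, and 0.23 and 0.25 in endometrium. The largest SD in WBC was 0.86 in SCE cows, of CLEC6A, and 0.54 in healthy cows, of TMEM173. In WBC 25 of 35 members had a positive difference of SCE minus healthy, as did 21 of 35 in endometrium. Over all genes, 12592 differences were positive and 13958 negative in WBC, and 13433 and 13114 in endometrium. These signs carry no test.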

How the data were processed

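The authors labelled the RNA with cyanine 3, hybridised it to a custom bovine 60-mer array and extracted the spots with Agilent Feature Extraction 10.10.1.1. The deposited files hold spot intensity on a linear scale without normalization, and a table of normalized intensity. Coordinates are those of the array file, which names the build Btau_3.1. Intensity limits the precision through background, and the number of arrays (4 per group) limits it further.

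From these files the log2 median intensity was taken. Control spots and outlier spots were left out, and the log2 values were quantile-normalized over the 16 arrays. Spots were averaged per probe and probes per gene name, with 2 of the 3 probes used for CD14. Groups came from the labels. The SCE group was set against the healthy group tissue by tissue, and the tissues and the difference of SCE differences in 1 model of 4 groups, with limma 3.58.1 in R 4.3.3 (lmFit, treat at 1.2-fold) and Benjamini-Hochberg adjustment over all gene names at 0.05. Single members were also tested by a two-sided exact permutation test. Replicates are separate cows. Both arrays of a cow come from 1 animal, so they are paired: their deviations from the group means correlated at −0.24 to 0.11, and a fit with cow as a block was run beside the main one. Probes were compared by blastn 2.17.0. Fold bounds for groups not well above background use, per array, the higher of the gene's own level and the lowest signal among probes well above background. The gene's own level was the higher on every such array, so each bound equals the measured difference. It is a bound as to background only, not the lower limit of an interval.

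The members and the gene lists were chosen with earlier results of these data known. Full values are given for TLR2, for members past unadjusted TREAT between SCE and healthy cows, and for the member of each class with the largest called tissue difference in each direction in healthy cows; TLR4, CD14, NOD2, CLEC7A and CLEC4E were added after their values were seen. Alternatives were normalization within each tissue, processed signal over the 75th percentile, normexp with offset 50, the deposited table, the brightest probe, a filter on dim probes, names by accession, outlier spots kept, no fold threshold, a trended prior, the block on cow or row, all arrays in 1 model and each cow left out. Leaving out the 3 partly matching probes, each probe on its own, leaving out the endometrium array of cow 833 and the CD36 difference without cow 833 were added after the data were seen. The normalized table's rows follow the order of spots in the scanner files (correlation with their intensity 0.9935 to 0.9998), and each of its columns has a median of 231.5 on a linear scale. The fits were tested on simulated data.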

Additional observations from a re-analysis of the deposited data

Results flagged for a closer look

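Of 140 sets of 4 cows (35 members in 4 groups), 6 had 1 cow far from the other 3, which is 4.29%, and chance gives about 1 in 20. In WBC of SCE cow 833, CARD9 was 9.5714 where the others ran from 10.0166 to 10.0451, and TLR2 was 11.2904 where the others ran from 10.6608 to 10.7613. In endometrium of the same cow, TLR8 was 5.4544 against 5.6487 to 5.6845, values not well above background. NLRP3 in endometrium of healthy cow 841 was 7.1647 against 5.7641 to 5.9012. RIPK2 in endometrium of SCE cow 836 was 8.7031 against 9.0865 to 9.1191. TLR4 in WBC of healthy cow 850 was 10.5163 against 10.0193 to 10.0278.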

How the results depend on the processing

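Normalizing each tissue on its own, which puts the tissues on separate scales, moved the counts most: members higher in endometrium went from 1 to 2 in healthy and from 0 to 3 in SCE cows, and members lower from 23 to 12 and from 27 to 12. Under it the differences of CD14, IRAK4, RIPK2 and MAVS in healthy cows turned to 0.025, 0.29, 0.21 and 0.19, and those of TLR3, IRAK2, IRAK4, TRAF6, RIPK2 and MAVS in SCE cows to 0.80, 0.016, 0.26, 0.66, 0.11 and 0.29. A further 7 members in healthy cows and 4 in SCE cows, called in neither setting, changed sign as well. In SCE cows 1 member, LY96, was called higher with the brightest probe, with the filter on dim probes and with no fold threshold, and leaving out a cow gave 0 to 1. IRAK4 turned to 0.29 in healthy and 0.29 in SCE cows at its brightest probe, A_73_112639, and LY96 to −0.26 in healthy cows at A_73_117819. In the other settings the number of members lower ran from 19 to 26 in healthy and from 20 to 29 in SCE cows. With cow as a replicate block 21 and 26 members were lower, and the block changed no call but those of TLR9, CD14, NOD2 and TIRAP given above. Between SCE and healthy cows 0 members were called in either tissue in every setting run. The cause of these changes was not tested beyond what the settings themselves do. Members not well above background in endometrium (TLR1 and TLR8 in both groups, TLR7 in healthy and NLRP3 in SCE cows) have only a bound there. TIRAP was well above background in endometrium of neither group and not on all WBC arrays, and has no bound.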

Other observations

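DHX58 (LGP2), a regulator of the RIG-like receptors that lacks their signalling domains, had no probe under its symbol, but 2 probes under the older symbol LGP2. Their mean fell from WBC to endometrium by 1.01 ± 0.26 (SE) in healthy cows and by 1.19 ± 0.26 in SCE cows (limma adjusted p = 0.0171 and 0.00528), and differed between SCE and healthy cows by −0.10 in endometrium and 0.08 in WBC (limma adjusted p = 1 in each). Of the DHX58 probes, 1 of 2 was well above background on each array.

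Among the pathway genes that were no members, CD36, a scavenger receptor that acts with TLR2 and TLR6, had the largest difference of SCE minus healthy cows in endometrium, 1.58 ± 1.56 (SE, limma adjusted p = 1). Its level was 13.98 in cow 833 and 6.11 to 7.14 in the other SCE cows, against 6.67 to 7.19 in healthy cows, and the difference was −0.23 without cow 833 (adjusted p = 1). The endothelial genes were also highest on that array, as given above, and their part in the CD36 level was not tested. IL18, a cytokine that CASP1 matures, differed by 0.65 (adjusted p = 1). The further pathway genes LBP and MB21D1 differed by 0.70 and 0.68, with SDs of 1.05 and 1.67 in SCE endometrium. None of these genes passed the adjusted test.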
